A study of Homo sapiens with 6 samples.

Results

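The genes of 7 solute carrier families that move amino acids and related compounds across membranes (SLC1, SLC3, SLC6, SLC7, SLC36, SLC38 and SLC43) were followed in HaCaT, an established line of immortalised human keratinocytes. Members were taken by symbol: a gene counted when a probe set was annotated to it alone, its symbol began with one of these family names and it was not a pseudogene. This gave 59 of the 18404 genes tested. Of these, 58 encode carriers or carrier subunits. The other is SLC7A6OS, a neighbour of SLC7A6 that carries the family name but is no transporter. SLC43A3 was left out because its probe set is shared with PRG2.

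Total RNA was taken 72 hours after infection with a lentivirus, which carried either a control vector (shControl, 3 arrays) or a hairpin RNA against TP63 (shTP63, 3 arrays). TP63 encodes p63, the transcription factor that maintains basal cells of stratified epithelia, and the series belongs to a study of p63, its partner ACTL6A and the Hippo-YAP pathway in squamous carcinoma. HaCaT is 1 line, kept in serum-containing medium, and the labels do not state whether replicates came from separate cultures. The p-values therefore measure only the spread between these arrays, and this spread may be technical. TP63 itself was not analysed here. The knockdown is thus unchecked, and every direction rests on the sample labels.

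Amino acid carriers fall into exchangers, which trade one amino acid for another, and concentrating carriers, which are driven by sodium, chloride or protons. In epithelial cells the 2 kinds work together: concentrating carriers of the SLC6 and SLC38 families load small neutral amino acids. SLC7 exchangers spend these to bring in leucine and other essential amino acids. Most SLC7 exchangers reach the membrane only when bound to a heavy chain, SLC3A2 (CD98) or SLC3A1. A further set, including SLC36A1, SLC38A7 and SLC38A9, works at the lysosome, where amino acids released from proteins are sensed by the kinase complex mTORC1.

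All values are log2 intensities, and a difference is shTP63 minus shControl on that scale. A gene was said to have risen or fallen when limma's moderated test gave an adjusted p (Benjamini-Hochberg over all 18404 genes) under 0.05. Across probe sets (no independent replicates), Pearson's r was 0.996 to 0.998 between arrays within a group and 0.988 to 0.991 between arrays of opposite groups. The 8 measured of 10 keratinocyte markers had group means of 11.96 to 13.82 in shControl and 11.88 to 13.32 in shTP63. Of these 8, 4 fell, SFN (-0.60), KRT5 (-0.50), KRT14 (-0.35) and DSG3 (-0.31), and 2 rose, LAMB3 (0.33) and ITGB4 (0.21). With all genes split into 5 bins by mean level, the 8 lay in the brightest, where 44.0% of genes fell and 25.3% rose. Of 21 measured markers of fibroblasts, melanocytes, immune and endothelial cells, 3 rose and 2 fell, beside 16.4% and 25.1% of all genes tested. Their shControl means ran from 5.61 to 8.40 for fibroblasts and from 4.67 to 6.94 for melanocytes. For immune cells they ran from 4.31 to 8.99 and for endothelial cells from 5.41 to 9.50. Among these markers, the pan-leukocyte marker PTPRC had group means of 4.31 and 4.27 and did not pass, while CD68 rose by 0.75. The part of these shifts in the carriers' differences was not tested. As a measure of background, 95% of 360 olfactory receptor genes had a mean under 6.81, called the olfactory percentile here. Of the markers of other cell types, COL1A1, PMEL, CD68 and CDH5 had both group means over it, and PTPRC had both under it.

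Of the 59 members, 27 rose, 2 fell and 30 did not pass limma's test. Among all genes tested 41.5% passed, 16.4% as rises and 25.1% as falls, so rises made up 93.1% of the members' calls and 39.5% of all calls. The members' median difference was 0.13, beside -0.01 over all genes, and 0.02 beside -0.12 with arrays centred on their medians. Groups did not overlap in 34 members, beside 51.4% of all genes. In 32 of them every shTP63 value lay above every shControl value and in 2 every one lay below, which held for 20.9% and 30.4% of all genes. All 29 members that passed were without overlap, as were 5 that did not pass. Except for SLC6A14, the changes were small: the other rises ran from 0.14 to 0.69, and standard errors of the members ran from 0.041 to 0.108.

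**Figure D1:**
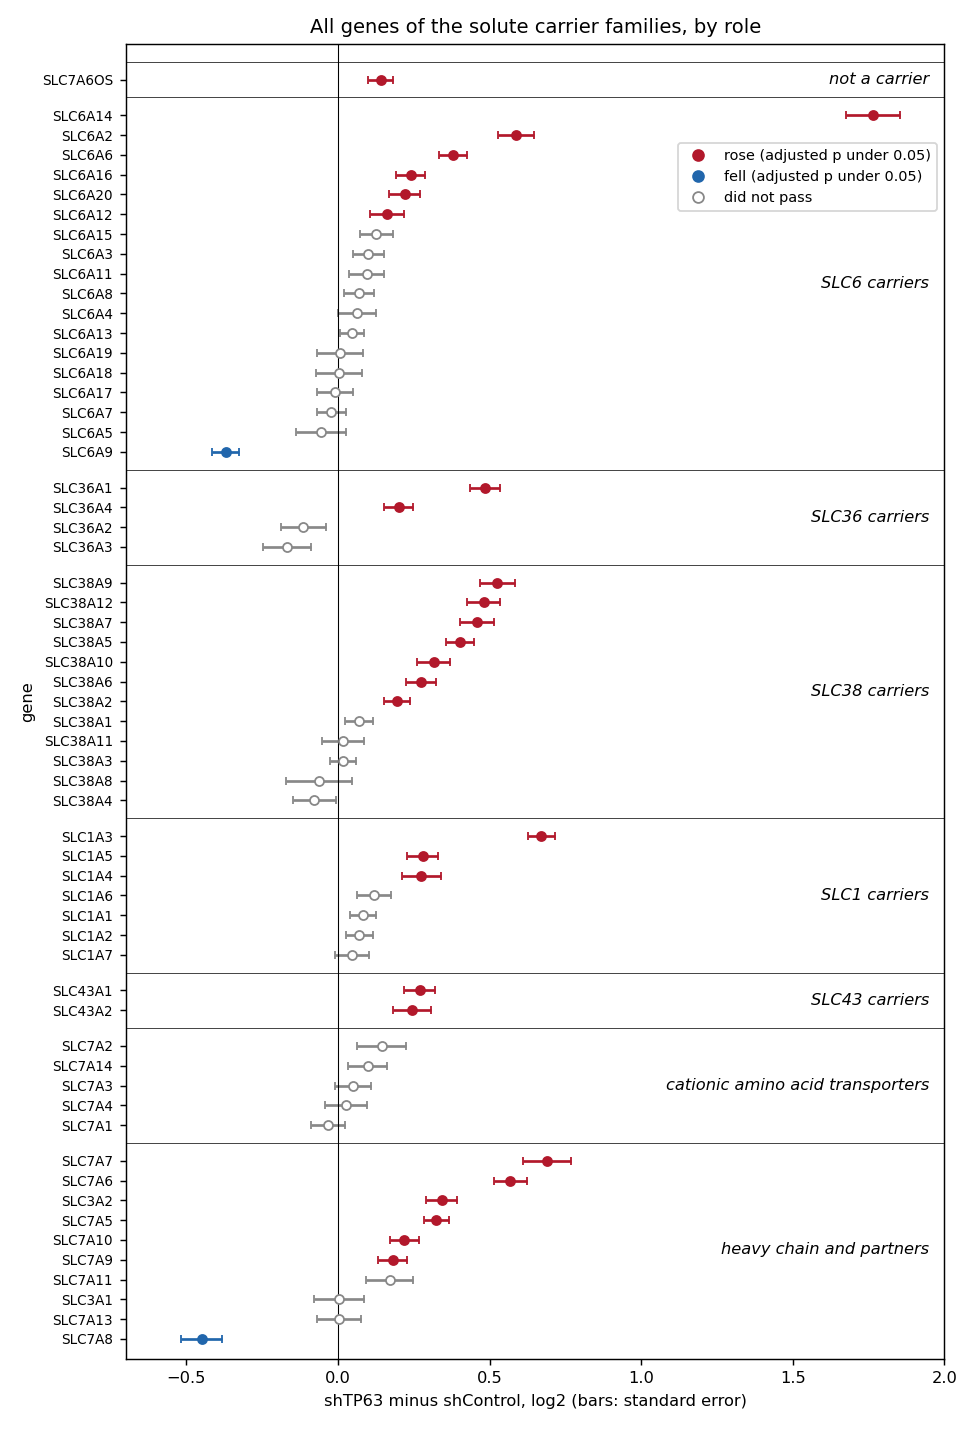
Difference between shTP63 and shControl (x axis, log2) for each of the 59 members (y axis), grouped by role, with bars for the standard error of limma's fit. Filled red and blue points passed an adjusted p of 0.05 as rises (27) and falls (2), open points did not pass (30), and SLC6A14 stands apart at 1.77.

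The heavy chain SLC3A2 and 3 of the exchangers that bind it, SLC7A5, SLC7A6 and SLC7A7, rose together, while another partner, SLC7A8, fell. Their RefSeq promoters are shown because these genes code for subunits of shared complexes and moved together or apart. Each line gives the 250 bases before the annotated gene start (GRCh38.p14), 5′ to 3′ on the gene's strand. Capitals mark matches on either strand to 5 motifs. TGATGNAA is the core of the amino acid response element bound by ATF4. TGACNNNGC is the core of the antioxidant response element bound by NRF2, and CACGTG that of the lysosomal CLEAR element. TGANTCA is a loose form of the AP-1 element TGA(C/G)TCA that allows any middle base. The last is the half-site consensus of the p53 family, to which p63 belongs.
SLC3A2 (chr11:62881449-62881698, plus strand): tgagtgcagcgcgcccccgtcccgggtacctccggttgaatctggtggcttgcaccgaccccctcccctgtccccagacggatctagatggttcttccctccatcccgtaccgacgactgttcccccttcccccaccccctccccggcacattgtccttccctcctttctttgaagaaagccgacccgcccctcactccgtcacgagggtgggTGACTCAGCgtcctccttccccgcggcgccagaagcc
SLC7A5 (chr16:87869508-87869757, minus strand): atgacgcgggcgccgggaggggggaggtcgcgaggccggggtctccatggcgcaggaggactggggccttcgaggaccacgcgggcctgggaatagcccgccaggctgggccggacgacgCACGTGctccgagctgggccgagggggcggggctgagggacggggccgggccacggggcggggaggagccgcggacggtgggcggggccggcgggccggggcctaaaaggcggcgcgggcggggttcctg
SLC7A6 (chr16:68264276-68264525, plus strand): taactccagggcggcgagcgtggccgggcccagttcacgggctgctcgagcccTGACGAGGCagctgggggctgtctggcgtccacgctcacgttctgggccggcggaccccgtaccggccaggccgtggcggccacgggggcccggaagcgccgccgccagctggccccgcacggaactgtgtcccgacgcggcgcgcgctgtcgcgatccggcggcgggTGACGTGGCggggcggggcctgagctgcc
SLC7A7 (chr14:22819792-22820041, minus strand): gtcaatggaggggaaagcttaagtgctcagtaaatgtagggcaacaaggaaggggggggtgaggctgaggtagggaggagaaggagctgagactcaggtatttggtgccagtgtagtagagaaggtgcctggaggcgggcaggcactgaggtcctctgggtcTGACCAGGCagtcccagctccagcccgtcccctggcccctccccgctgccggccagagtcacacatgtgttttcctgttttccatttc
SLC7A8 (chr14:23155321-23155570, minus strand): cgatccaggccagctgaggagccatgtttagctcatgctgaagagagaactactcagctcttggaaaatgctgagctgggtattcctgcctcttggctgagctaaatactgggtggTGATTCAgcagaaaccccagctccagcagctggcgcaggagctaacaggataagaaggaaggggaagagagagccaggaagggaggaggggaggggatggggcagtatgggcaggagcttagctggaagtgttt

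In the SLC3A2 promoter the AP-1 and antioxidant matches overlap, starting 37 bases before the gene start. SLC7A6 held TGACNNNGC at 197 and at 29 bases before the start and SLC7A7 at 88. SLC7A5 held CACGTG at 130 bases. SLC7A8 held TGANTCA at 134, there as TGATTCA, which matches only the loose form. Promoter sequences matched 46 of the 59 members and 14228 of all genes tested. Each of the 7 promoters printed in this report held a match, but most of the 46 held none of the 5 motifs. Among those without a match were SLC7A10, a further heavy chain partner that rose and is not shown, and SLC6A9, which fell. TGACNNNGC stood in 3 of 24 promoters of members that rose (12.5%), in 1 of 22 of the other members (4.55%) and in 11.8% of all promoters of the same length. TGANTCA stood in 3 of the 24 (12.5%), in 4 of the 22 (18.2%) and in 4.91% of all. CACGTG stood in 4 of the 24 (16.7%), in 1 of the 22 (4.55%) and in 7.86% of all. The half-site consensus of the p53 family was found in 1 of the 46 promoters, that of SLC38A5 (2 matches), and in 5.10% of all. A match is a run of letters, not a shown binding site.

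SLC3A2 (probe set 7940717), the CD98 heavy chain, read 12.20, 12.29 and 12.29 on the shControl arrays and 12.54, 12.62 and 12.66 on the shTP63 arrays. All 3 shTP63 values were higher, and the gene rose by 0.34 ± 0.0511 (SE, n = 3 per group, limma adjusted p = 0.000629), or 1.27-fold. SLC7A5 (LAT1, probe set 8003298), which with CD98 imports leucine and other large neutral amino acids, read 12.93, 12.93 and 12.96 against 13.24, 13.26 and 13.30. The groups did not overlap and the difference was 0.32 ± 0.0412 (limma adjusted p = 0.000258), close in size to that of its heavy chain.

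The exchangers that trade cationic for neutral amino acids with sodium had larger rises. SLC7A7 (y+LAT1, probe set 7977786), whose loss causes lysinuric protein intolerance, read 9.41, 9.47 and 9.54 in shControl and 10.13, 10.02 and 10.34 in shTP63. It rose by 0.69 ± 0.0781 (limma adjusted p = 0.000137), or 1.61-fold, and its shTP63 arrays were spread more widely (SD 0.160) than its shControl arrays (SD 0.0669). SLC7A6 (y+LAT2, probe set 7996772) read 10.51, 10.52 and 10.47 against 10.98, 11.06 and 11.17, without overlap, and rose by 0.57 ± 0.0545 (limma adjusted p = 5.65e-05). SLC7A6OS, whose locus overlaps that of SLC7A6 in RefSeq, rose by only 0.14 ± 0.0422. Its call was lost without shControl replicate 1 or 2 (difference 0.13 in each case) and without shTP63 replicate 2 or 3 (0.14 in each case). It was also lost with arrays centred on their medians, where the difference was 0.03 (limma adjusted p = 0.570).

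SLC7A8 (LAT2, probe set 7977933), which also pairs with CD98 and carries neutral amino acids large and small, went the other way. It read 9.68, 9.67 and 9.70 in shControl and 9.10, 9.22 and 9.38 in shTP63, a fall with a difference of -0.45 ± 0.0681 (limma adjusted p = 0.000674). Every shTP63 array lay below every shControl array. SLC7A11 (xCT), the cystine and glutamate exchanger that feeds glutathione synthesis, read 9.71, 9.97 and 9.93 against 9.95, 10.15 and 10.03. Its groups overlapped and it did not pass (difference 0.17 ± 0.0778, limma adjusted p = 0.115). Over all alternatives its difference stayed above 0, and it passed with a block for replicate number (adjusted p = 0.0338) and after cyclic loess (0.24, adjusted p = 0.0322).

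Among the remaining heavy chain partners, SLC7A10, the alanine, serine and cysteine exchanger, rose by 0.22 ± 0.0479 and lost its call once arrays were centred on their medians (0.11). SLC7A9, the partner of SLC3A1 in renal cystine uptake, differed by 0.18 ± 0.0478 with both group means under the olfactory percentile. It passed (limma adjusted p = 0.0138). It did not pass without shControl replicate 2 (0.17) or without shTP63 replicate 2 (0.15), nor under the 3 other scalings. SLC3A1 itself and the kidney carrier SLC7A13, with group means of 3.90 to 5.63, lay under the olfactory percentile and did not pass. In this group of 10 genes, 6 rose and 1 fell.

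The genes of the CAT group, named for uniporters that carry arginine, lysine and ornithine without a heavy chain, were not called. None of SLC7A1, SLC7A2, SLC7A3, SLC7A4 and SLC7A14 passed limma's test, and 0 of these 5 had an unadjusted p under 0.05. In SLC7A2, SLC7A3 and SLC7A14 both group means lay under the olfactory percentile, and in SLC7A4 only a little over it. At such levels the lack of a call cannot show that these genes were unchanged. SLC7A1, the widely expressed member, read 11.85, 11.87 and 11.86 in shControl and 11.71, 11.88 and 11.89 in shTP63. The difference was -0.03 ± 0.0549, and 0.02 without shTP63 replicate 1, the lowest of the 6 arrays. The heavy-chain-free carriers of leucine and other large neutral amino acids, SLC43A1 (LAT3) and SLC43A2 (LAT4), both rose. SLC43A1 read 7.52, 7.42 and 7.43 against 7.74, 7.78 and 7.66, without overlap, a rise of 0.27 ± 0.0506 (limma adjusted p = 0.00233). SLC43A2 rose by 0.24 ± 0.0631, a call lost after centring (0.14).

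**Figure D2:**
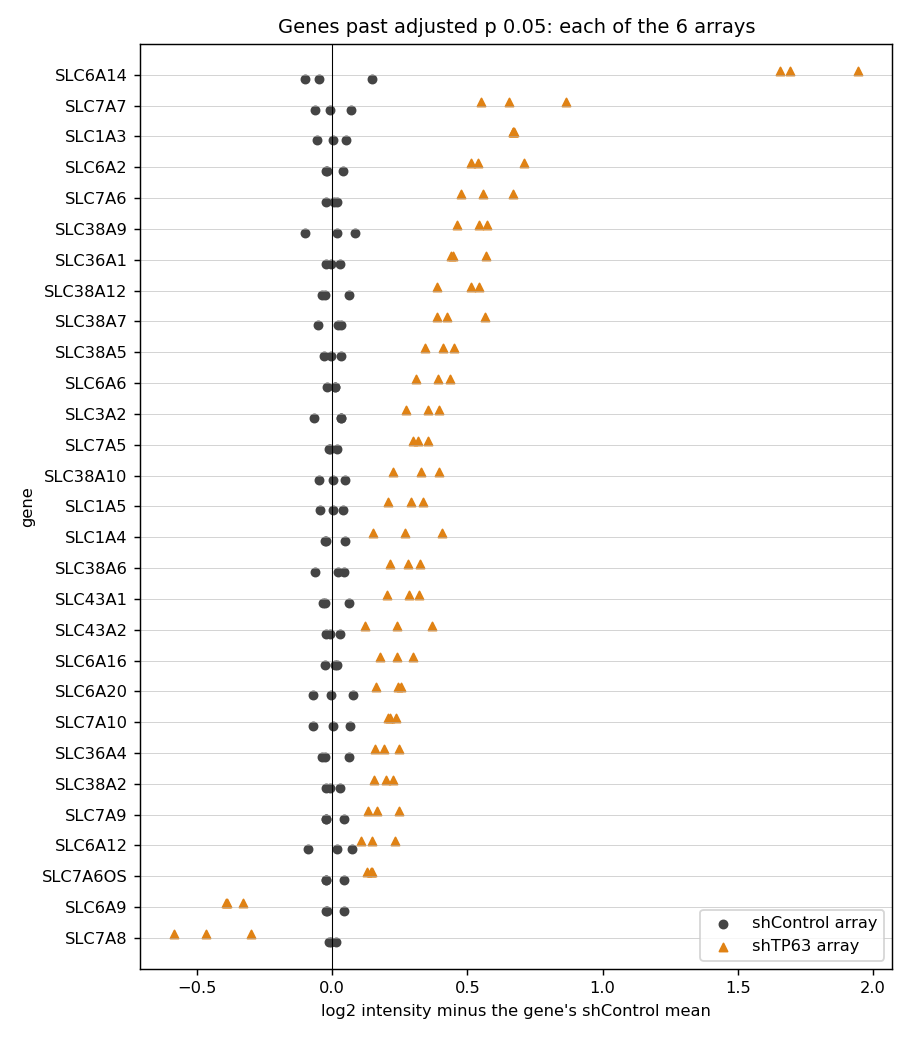
Log2 intensity of each array minus the mean of the gene's 3 shControl arrays (x axis) for the 29 members that passed (y axis). Circles are shControl arrays and triangles shTP63 arrays, and in each of the 29 genes the groups are apart.

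SLC6A14, the sodium- and chloride-driven carrier of both neutral and cationic amino acids, had the largest fitted difference of all members. Its promoter, shown as that of the member that changed most, held 1 AP-1 match, 216 bases before the gene start, and none of the other motifs in this window.
SLC6A14 (chrX:116436356-116436605, plus strand): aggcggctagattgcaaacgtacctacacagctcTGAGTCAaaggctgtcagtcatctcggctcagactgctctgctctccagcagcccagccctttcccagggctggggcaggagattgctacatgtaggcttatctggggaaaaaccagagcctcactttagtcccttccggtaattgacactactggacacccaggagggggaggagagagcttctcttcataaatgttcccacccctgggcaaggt

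The gene (probe set 8169504) read 5.37, 5.32 and 5.56 on the shControl arrays and 7.11, 7.07 and 7.36 on the shTP63 arrays. The groups were far apart, and the rise was 1.77 ± 0.0885 (SE, limma adjusted p = 2.18e-06). The shControl arrays lay under the olfactory percentile of 6.81 and the shTP63 arrays above it. By this measure the shControl level could thus not be told from background, and the fold of 3.40 on the values read was uncertain. Set against that percentile instead, the shTP63 mean was higher by 0.37, or 1.30-fold. Over the alternatives that gave the gene a value, its difference from shControl ranged from 1.66 to 1.84.

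Other SLC6 members carry neurotransmitters, osmolytes or creatine as well as amino acids. SLC6A2, known as the noradrenaline transporter, read 9.76, 9.76 and 9.82 in shControl and 10.29, 10.32 and 10.49 in shTP63. It rose by 0.59 ± 0.0584 (limma adjusted p = 6.81e-05) with no overlap. SLC6A6, the taurine transporter, read 9.62, 9.59 and 9.62 against 9.92, 10.00 and 10.04. Every shTP63 array was higher, and the rise was 0.38 ± 0.0468 (limma adjusted p = 0.000220).

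SLC6A9, the glycine transporter GlyT1, was the other member that fell. It read 10.04, 10.04 and 10.11 in shControl and 9.67, 9.68 and 9.74 in shTP63, a fall with a difference of -0.37 ± 0.0442 (limma adjusted p = 0.000182). The spread within each group (SD 0.0374 and 0.0365) was a small part of the difference. The remaining SLC6 rises were those of SLC6A16 (0.24 ± 0.0469, both group means under the olfactory percentile), SLC6A20 (0.22 ± 0.0524), an imino acid carrier, and SLC6A12 (0.16 ± 0.0563), the betaine transporter. SLC6A20 lost its call after another quantile normalization (0.11) and after centring (0.11). SLC6A12 kept its call in 5 of 14 alternatives and lost it without shControl replicate 2 (0.17), shControl replicate 3 (0.12), shTP63 replicate 1 (0.17) or shTP63 replicate 3 (0.13). The 11 SLC6 members that did not pass had differences from -0.06 to 0.13. They were the creatine transporter SLC6A8, the dopamine and serotonin transporters SLC6A3 and SLC6A4, the GABA transporters SLC6A11 and SLC6A13, the glycine transporter SLC6A5, the proline transporter SLC6A7, and SLC6A15, SLC6A17, SLC6A18 and SLC6A19. Both group means were over the olfactory percentile only in SLC6A3, SLC6A8, SLC6A11 and SLC6A19, and under it in the others.

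In the SLC1 family the glutamate and aspartate transporter SLC1A3 (EAAT1) rose most. Its promoter is shown because it held the only TGATGNAA match among the 46 member promoters, 220 bases before the gene start, a motif found in 2.19% of all promoters.
SLC1A3 (chr5:36596338-36596587, plus strand): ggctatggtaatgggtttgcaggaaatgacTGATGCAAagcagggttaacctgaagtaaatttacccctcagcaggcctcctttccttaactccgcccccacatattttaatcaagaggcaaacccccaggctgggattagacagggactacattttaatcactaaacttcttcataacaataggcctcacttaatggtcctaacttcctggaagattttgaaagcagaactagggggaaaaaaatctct

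SLC1A3 (probe set 8104930) read 11.52, 11.63 and 11.58 in shControl and 12.24, 12.25 and 12.24 in shTP63. It rose by 0.67 ± 0.0446 (limma adjusted p = 9.38e-06), or 1.59-fold, and the 3 shTP63 arrays were nearly equal. The sodium-dependent exchangers of small neutral amino acids rose by less. SLC1A5 (ASCT2), a main route of glutamine into proliferating cells, read 11.42, 11.47 and 11.50 against 11.67, 11.76 and 11.80, a rise of 0.28 ± 0.0498 (limma adjusted p = 0.00174). SLC1A4 (ASCT1) read 9.96, 9.96 and 10.03 against 10.13, 10.25 and 10.39, a rise of 0.27 ± 0.0651 (limma adjusted p = 0.00813), a call lost after centring (0.17). In both genes the groups were apart, with shTP63 replicate 1 the lowest of its group. The other glutamate transporters, SLC1A1, SLC1A2, SLC1A6 and SLC1A7, did not pass. Their differences lay between 0.05 and 0.12 and both their group means under the olfactory percentile.

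Of the 12 SLC38 members, sodium-coupled carriers of glutamine and other small neutral amino acids and their relatives, 7 rose. SLC38A5 (SNAT5), which carries glutamine, asparagine and histidine, read 10.89, 10.92 and 10.96 in shControl and 11.33, 11.27 and 11.38 in shTP63. The groups did not overlap and the rise was 0.40 ± 0.0463 (limma adjusted p = 0.000149). SLC38A2 (SNAT2), the carrier that many cells induce on amino acid starvation, read between 12.98 and 13.03 in shControl and 13.23, 13.20 and 13.16 in shTP63, a rise of 0.19 ± 0.0428 (limma adjusted p = 0.00565) that was lost after centring (0.09). SLC38A1 (SNAT1) read 12.56, 12.56 and 12.57 against 12.61, 12.70 and 12.59. Its groups did not overlap, yet it did not pass (0.07 ± 0.0459, limma adjusted p = 0.278), and its difference ran from -0.04 after centring to 0.13 after cyclic loess. It passed as a rise after cyclic loess (limma adjusted p = 0.045) and after another quantile normalization (0.12, limma adjusted p = 0.0493).

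SLC38A6 read 9.40, 9.49 and 9.51 in shControl and 9.79, 9.75 and 9.68 in shTP63 and rose by 0.27 ± 0.0497. SLC38A10 read 9.95, 9.90 and 9.99 against 10.17, 10.27 and 10.34 and rose by 0.32 ± 0.0546. SLC38A12 read 8.83, 8.93 and 8.84 against 9.26, 9.38 and 9.41 and rose by 0.48 ± 0.0548. In all 3 genes the groups were apart, with limma adjusted p from 0.000142 to 0.00190. SLC38A3, SLC38A4, SLC38A8 and SLC38A11 did not pass, with differences from -0.08 to 0.02. Except for SLC38A8, they had both group means under the olfactory percentile. SLC38A4 passed as a fall without shTP63 replicate 3 (-0.16).

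A few members are known from the lysosome. SLC38A9, which senses arginine in the lysosome and binds the Ragulator and Rag proteins that recruit mTORC1, read 10.12, 10.31 and 10.24 in shControl and 10.80, 10.76 and 10.68 in shTP63. It rose by 0.53 ± 0.0583 (limma adjusted p = 0.000123), or 1.44-fold, and no values overlapped. SLC38A7 (SNAT7), which exports glutamine from lysosomes, read 9.07, 9.14 and 9.15 against 9.51, 9.54 and 9.68 and rose by 0.46 ± 0.0563 (limma adjusted p = 0.000213).

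SLC36A1 (PAT1), a proton-coupled carrier of small amino acids at the lysosome and cell surface, read 9.02, 8.97 and 8.99 against 9.44, 9.43 and 9.56. The groups were apart by more than the spread within either, and the rise was 0.48 ± 0.0493 (limma adjusted p = 7.72e-05). Its relative SLC36A4 rose by 0.20 ± 0.0482, a call lost after centring (0.09). SLC7A14, also known from the lysosome, had both group means under the olfactory percentile and did not pass (limma adjusted p = 0.270). SLC36A2 and SLC36A3, with both group means under the olfactory percentile, differed by -0.12 and -0.17 and did not pass. The RefSeq spans of some members overlap another protein-coding gene (SLC36A1 with FAT2, SLC38A6 with TRMT5, SLC6A6 with GRIP2, SLC6A9 with CCDC24, SLC6A16 with CD37 and SLC7A10 with LRP3), and whether their probes also detect it was not tested.

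Level and scaling bore on the counts. Both group means lay over the olfactory percentile in 35 members, of which 24 rose and 2 fell, beside 19.5% and 33.1% of all genes at such levels. Both lay under it in 23 members, of which 2 rose (SLC6A16 and SLC7A9) and 0 fell in limma's test, beside 6.87% and 4.63% of all such genes. None of these 23 was lower at an unadjusted p under 0.05. When genes were split into 5 bins of equal size by mean level, 11 of 14 members rose in the brightest, beside 25.3% of its genes, and the median difference was 0.32 for the members and -0.10 for all genes of the bin. In the next bin 9 of 13 rose, beside 18.5% of its genes, with medians of 0.24 and -0.10.

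**Figure D3:**
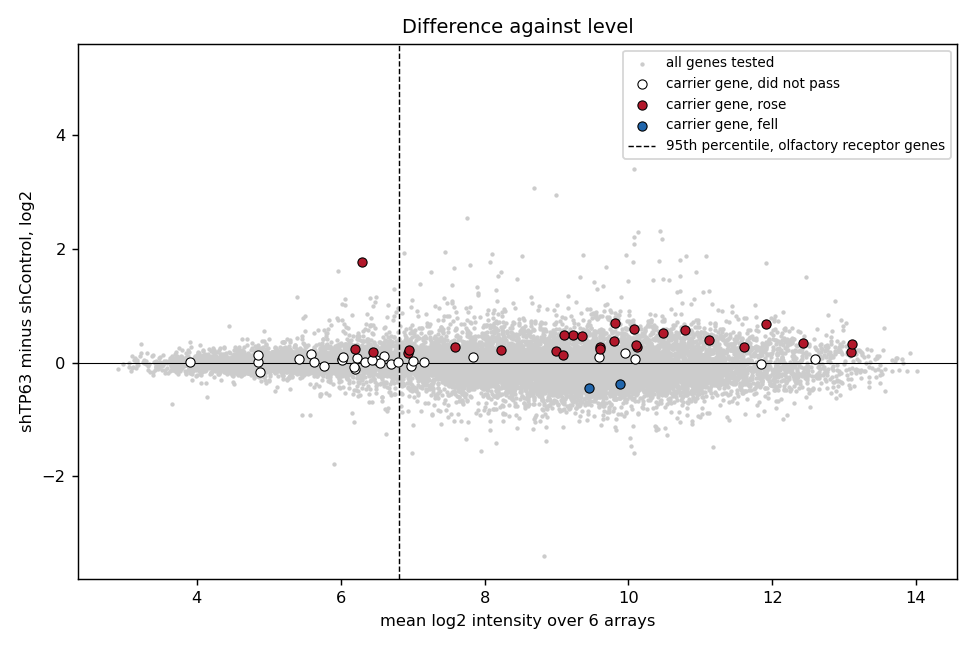
Difference between shTP63 and shControl (y axis, log2) against mean log2 intensity over the 6 arrays (x axis) for all 18404 genes (grey) and the 59 members (red rose, blue fell, white did not pass). The dashed line is the olfactory percentile of 6.81, left of which only 3 members (SLC6A14, SLC6A16 and SLC7A9) are red.

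Centring arrays on their medians took the median difference over all genes from -0.01 to -0.12. That of the members went from 0.13 to 0.02, and to 0.07 after another quantile normalization. After centring 18 members rose and 6 fell, beside 9.68% and 43.1% of all genes. Rises were then 75.0% of the members' calls and 18.3% of all calls. All 18 were among the 27 that rose on the deposited scale, and none of those 27 fell. The further falls were those of SLC36A2 (-0.22), SLC36A3 (-0.28), SLC38A4 (-0.19) and SLC6A7 (-0.13), all with both group means under the olfactory percentile. After another quantile normalization 25 rose and 5 fell (14.1% and 31.4% of all genes), and after cyclic loess 27 rose and 2 fell (16.8% and 23.8%). In all 14 alternatives SLC3A2, SLC7A5, SLC7A6, SLC7A7, SLC1A3, SLC1A5, SLC38A9, SLC38A7, SLC36A1, SLC6A2 and SLC6A6 kept their rise and SLC7A8 and SLC6A9 their fall. Over all called members, 20 of 29 kept the call in every alternative that gave a value.

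**Figure D4:**
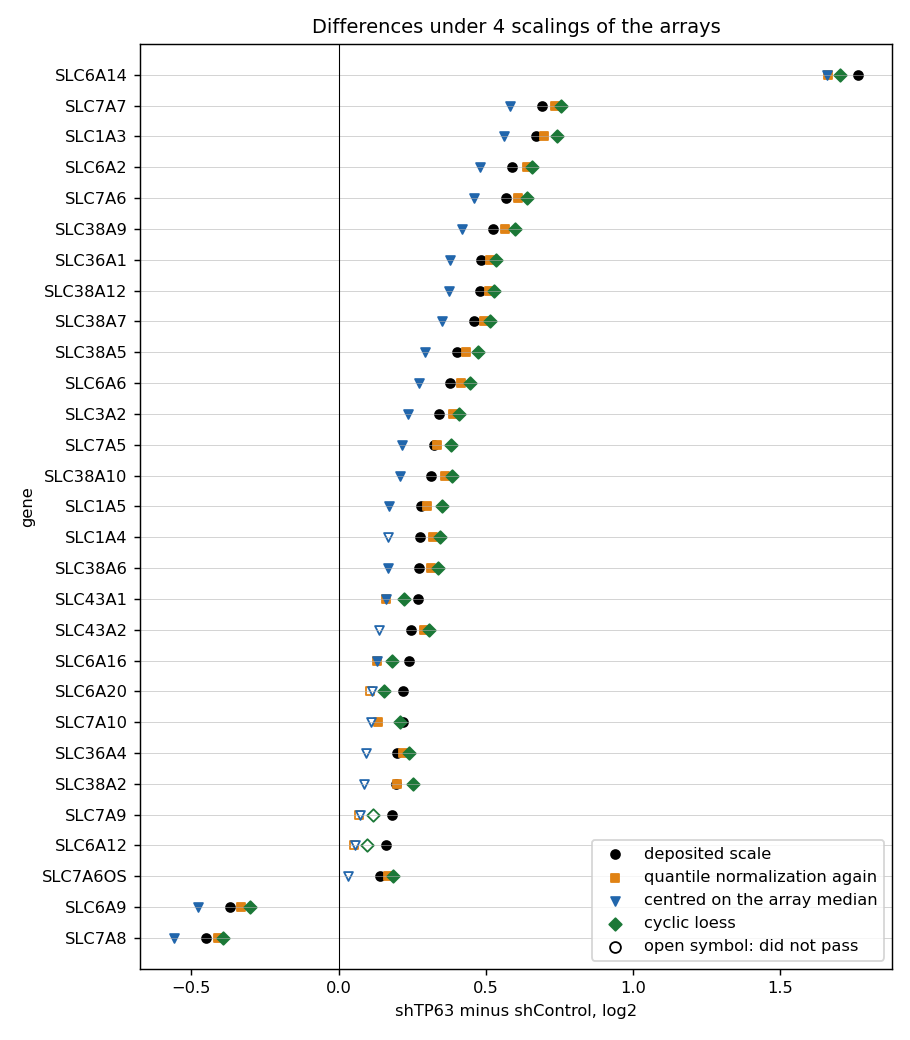
Difference between shTP63 and shControl (x axis, log2) for the 29 members that passed (y axis) under 4 scalings: as deposited, quantile normalized once more, centred on the array median and after cyclic loess. Open symbols did not pass, and no symbol of a gene crosses 0.

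Other genes of amino acid handling were taken as 5 lists. Their counts stand beside 16.4% rises and 25.1% falls over all genes, 19.5% and 33.1% over genes with both group means above the olfactory percentile, and 25.3% and 44.0% in the brightest bin. Of 9 measured partners and regulators of the carriers, 6 rose and 2 fell. SGK1, a kinase that raises the surface level of several carriers, rose from 7.29 to 8.51 (1.22 ± 0.0619). CLTRN (collectrin), which brings SLC6A19 and its relatives to the membrane, rose from 8.74 to 9.80 (1.06 ± 0.0574). SLC6A19 itself did not pass. ARL6IP5, which binds the glutamate transporter SLC1A1, rose by 0.42 (SE 0.0436), while NFE2L2, which encodes NRF2, fell by 0.40 (SE 0.0496). Of 22 amino acid and peptide carriers of other families, 6 rose and 4 fell, with a median of 0.03. SLC15A4, a lysosomal histidine and peptide carrier, rose by 0.51 (SE 0.0501), the lysosomal sialic acid carrier SLC17A5 by 0.40 (SE 0.0520) and MFSD12, needed for cysteine import into lysosomes, by 0.41 (SE 0.0580). SLC66A1, which exports cationic amino acids from lysosomes and is named after its value was seen, did not pass (limma adjusted p = 0.965). SLC17A8, a vesicular glutamate carrier, fell by 0.58 (SE 0.0601) with both group means under the olfactory percentile. The falls of this list were 2 without shControl replicate 2, shControl replicate 3 or shTP63 replicate 1, and 8 after centring.

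The other 3 lists held more falls than rises. Of 22 measured enzymes, 3 rose and 12 fell, with a median of -0.20. PRODH, which starts proline breakdown, fell by 1.02 (SE 0.0883), GCLC, the rate-limiting enzyme of glutathione synthesis, by 0.77 (SE 0.0566) and BCKDHB, of branched-chain amino acid breakdown, by 0.50 (SE 0.0411). KYNU, of tryptophan breakdown, rose by 0.82 (SE 0.0735) with both group means under the olfactory percentile. Of 19 measured genes of the amino acid response that ATF4 drives, 4 rose and 11 fell, with a median of -0.31. With the probe sets of each gene averaged, 10 fell and the median was -0.16. DDIT4 fell by 0.67 (SE 0.0490), DDIT3, which encodes CHOP, by 0.56 (SE 0.0593) and TRIB3 by 0.44 (SE 0.0437), whereas the secreted glycoprotein gene STC2 rose by 0.66 (SE 0.0485). ATF4 itself, named after its value was seen, fell by 0.36 (SE 0.0577) at the probe set used, but the mean of its probe sets differed by 0.11 and did not pass, so its direction is not settled.

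Of 31 measured genes of amino acid sensing by mTORC1, 19 fell and 0 rose in limma's test, and 0 were higher at an unadjusted p under 0.05. The median difference was -0.28. The list mixes genes that promote mTORC1 with genes that restrain it, so these counts give no direction of its signalling. RRAGC and RRAGB, which encode 2 of the Rag GTPases, fell by 0.90 (SE 0.0432) and 0.77 (SE 0.0539). SESN3, a sestrin, fell by 0.86 (SE 0.0446) and SEH1L, a subunit of the GATOR2 complex, by 0.61 (SE 0.0492). SLC38A9, which binds Rag proteins and is not in that list, rose. After cyclic loess and without shTP63 replicate 1, 1 gene of the list, DEPDC5, passed as a rise, and after centring 24 fell. Set beside these lists, the share of members that rose was 45.8%, and that of all genes tested was 16.4%. Among the partners and regulators 6 of 9 rose.

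**Figure D5:**
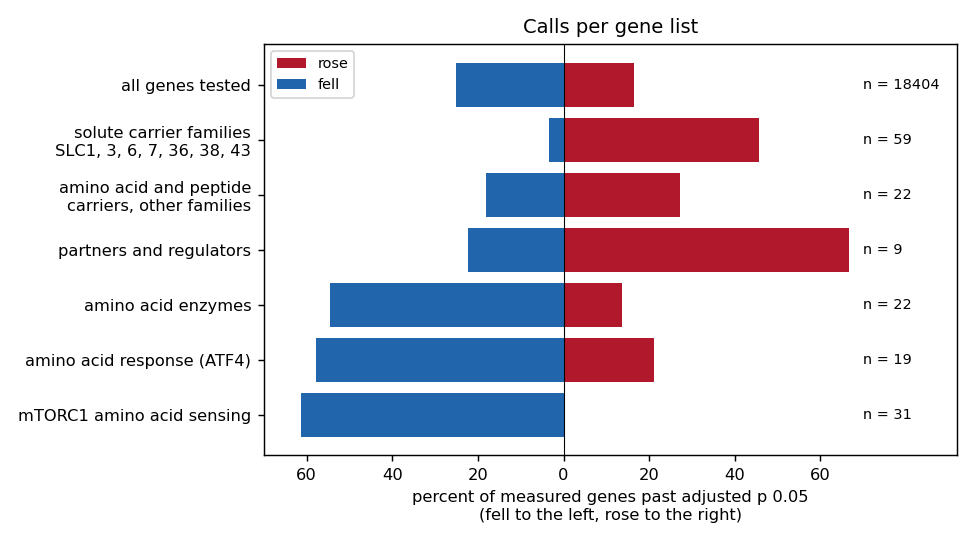
Percent of measured genes that fell (blue, left) and rose (red, right) at an adjusted p of 0.05 (x axis) among all genes tested, the 59 members and 5 lists of related genes (y axis, with the number measured). In the list of mTORC1 sensing 19 of 31 genes fell and in the members 27 of 59 rose.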

How the data were processed

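Per the submitters' processing notes, the deposited values were made with RMA in R 2.15.1. RMA subtracts background, normalizes arrays to each other and gives 1 value per probe set. The authors' table holds linear intensities, and array medians still differed (173 to 190). Their log2 was taken here, with no pseudocount. The labels' protocols describe oligo-dT priming and biotinylated cRNA, read in 1 colour. The array's genome build is not given in the sources used here.

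Names came from the supplied platform annotation, and 59 of 59 members matched RefSeq (GRCh38.p14) by Entrez identifier. For each of 18404 genes the probe set with the highest mean was used. The test was limma 3.58.1 (R 4.3.3; lmFit and eBayes, two-sided, without covariates), with p-values adjusted over all genes, and the fit was tested on simulated data. The number of arrays limits the precision.

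The members and lists were chosen with earlier results of these data known. Values of every array were printed for SLC3A2, the 5 members with the highest mean level and the 20 with the largest differences among those that passed without overlap, and from each related list up to 4 genes with the smallest adjusted p. Further members given with values were chosen after seeing them. Alternatives were a block for replicate number, 3 other scalings, leaving out the dimmest 40% of probe sets, averaging probe sets, a trended robust prior, array weights and leaving out each array.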

Additional observations from a re-analysis of the deposited data

How the results depend on the processing

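Centring on the array median gave 1782 rises and 7932 falls over all genes, against 3015 and 4619 on the deposited scale, and 6 falls among the members, against 2. Another quantile normalization gave 5 falls among the members. All other counts of calls over all genes, the members and the related lists together stayed within 1.5 times their values. Of the 30 members that did not pass, 23 had the opposite sign in at least 1 alternative, as did 0 of the 29 that passed. Among genes given with a value of their own, signs turned for SLC38A1 (-0.039) and SLC6A8 (-0.039) after centring, for SLC7A1 after cyclic loess (0.038) and, with 1 array left out, over -0.063 to 0.024, for SLC6A7 with 1 array left out (-0.049 to 0.0073), and for ATF4 with its probe sets averaged (0.11). None of these opposite values passed. Whether arrays of the same replicate number are paired is not settled. Deviations of same-numbered arrays from their group means correlated at -0.15, -0.037 and 0.125, and those of differently numbered arrays at -0.143 to 0.164. With 3 arrays per group such values cannot show how the samples were handled. With the replicate block 27 members rose and 2 fell, as without it, and the calls of SLC6A12 and SLC7A11 changed. Leaving out 1 array gave 24 to 27 rises and 2 to 3 falls among the members. Dim probe sets limit the sizes given for genes under the olfactory percentile.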

Other observations

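Some probe sets of these families entered no test of genes. The probe set shared by SLC43A3 and PRG2 read 11.52, 11.48 and 11.43 in shControl and 12.20, 12.27 and 12.25 in shTP63, a difference of 0.77 that cannot be assigned to either gene. SLC43A3 is known as a carrier of purine bases rather than amino acids. The probe set shared by the creatine transporter SLC6A8 and its pseudogenes differed by 0.01, beside 0.07 at the probe set of SLC6A8 alone. The other SLC1A5 probe set differed by 0.23, beside 0.28 at the one used, and the other SLC7A14 probe set by 0.03.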
